A study of Rattus norvegicus with 6 samples.

Results

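The semaphorins, plexins and neuropilins are a family of axon guidance ligands and receptors, and 23 of their genes were measured in rat motor neuron cultures after camptothecin or its solvent. Members were all genes named by a transcript cluster with 1 gene symbol that was Nrp1 or Nrp2, began with Plxn, or was Sema followed by a digit. They were 23 of 14506 genes measured in this way, each read from its brightest cluster on average. They comprised 2 neuropilins, 5 plexins, 6 secreted semaphorins of class 3 and 10 membrane semaphorins of classes 4 to 7. Plxna1, Plxna4, Plxnb1, Plxnc1, Sema3g, Sema4b, Sema4d and Sema6a were not analysed here. The first group was 3 cultures given 1 microM camptothecin for 2 h, and the second was 3 cultures given an equal volume of DMSO for 2 h. Both came from embryonic day 13.5 rat embryos and were kept in primary culture for 2 days, and neither the strain nor any genetic change is given in the labels. Camptothecin, a compound from plants, holds topoisomerase 1 in place on the DNA it has cut. The labels call the replicates biological but do not say whether they came from separate dissections, so the spread behind each p-value may be partly technical.

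Semaphorins steer growing axons, mostly by repulsion. Class 3 semaphorins are secreted and bind a neuropilin, which holds the ligand, together with a plexin, which carries the signal across the membrane, whereas most membrane semaphorins bind plexins directly. The plexin's cytoplasmic part acts on Ras-family GTPases, and plexin signalling acts on the growth cone's cytoskeleton. In the developing spinal cord, Sema3a with Nrp1 and Sema3f with Nrp2 are known for the timing and routing of motor axons into the limb.

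Expression was read on Affymetrix Rat Gene 1.0 ST arrays, and each value is a log2 expression value of one transcript cluster on one array. The number of arrays limits the precision. Array medians were 6.31 to 6.33 in camptothecin cultures and 6.22 to 6.28 in DMSO cultures. Arrays of the same treatment correlated at 0.992 to 0.995 (Pearson's r over the clusters), and arrays of different treatments at 0.983 to 0.985. Of 9 measured motor neuron markers, 5 were dim, meaning below 6.28, the median of all cluster means (Isl1, Isl2, Slc18a3, Slc5a7 and Prph). All 9 measured interneuron and sensory neuron markers lay above that value. In the text below rose and fell are used only of genes past an adjusted p of 0.05 in limma, fitted over all 29214 clusters.

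The stretches upstream of the members with the largest changes are shown because their expression is what the comparison turns on. They are the 250 bases before the annotated gene start for the 3 largest falls and the 3 largest rises, from RefSeq on GRCr8, read 5′ to 3′ along the gene. Capitals mark matches on either strand to 6 motifs. They are the GC box with the letters GGGCGG, the CCAAT box with the letters of its name, and the TATA box with TATAAA. The others are the AP-1 site with TGACTCA, the cyclic AMP response element with TGACGTCA, and the E-box with CACGTG. Matches may share letters.
Nrp1 (GRCr8 chr19:73256307-73256556, plus strand): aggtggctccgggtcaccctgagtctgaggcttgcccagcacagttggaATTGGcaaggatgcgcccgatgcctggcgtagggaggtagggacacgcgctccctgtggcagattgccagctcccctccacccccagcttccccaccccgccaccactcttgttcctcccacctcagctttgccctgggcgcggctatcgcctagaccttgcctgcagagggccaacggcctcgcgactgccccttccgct
Plxna2 (GRCr8 chr13:108691280-108691529, plus strand): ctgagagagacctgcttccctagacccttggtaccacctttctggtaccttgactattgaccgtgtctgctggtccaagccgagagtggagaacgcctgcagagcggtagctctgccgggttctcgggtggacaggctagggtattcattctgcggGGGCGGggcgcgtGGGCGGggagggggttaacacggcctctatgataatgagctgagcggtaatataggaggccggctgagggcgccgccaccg
Sema6d (GRCr8 chr3:132337106-132337355, plus strand): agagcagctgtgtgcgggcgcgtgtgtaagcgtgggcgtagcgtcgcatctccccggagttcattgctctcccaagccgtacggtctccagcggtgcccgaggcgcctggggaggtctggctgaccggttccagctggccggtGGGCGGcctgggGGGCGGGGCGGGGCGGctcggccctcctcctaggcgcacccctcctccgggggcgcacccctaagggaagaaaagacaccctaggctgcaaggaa
Sema4c (GRCr8 chr9:46297999-46298248, minus strand): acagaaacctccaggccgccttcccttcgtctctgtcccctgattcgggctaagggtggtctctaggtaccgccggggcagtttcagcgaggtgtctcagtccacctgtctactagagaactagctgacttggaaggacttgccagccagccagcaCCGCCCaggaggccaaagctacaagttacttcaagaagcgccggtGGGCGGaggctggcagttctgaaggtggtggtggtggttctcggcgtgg
Sema7a (GRCr8 chr8:67244068-67244317, plus strand): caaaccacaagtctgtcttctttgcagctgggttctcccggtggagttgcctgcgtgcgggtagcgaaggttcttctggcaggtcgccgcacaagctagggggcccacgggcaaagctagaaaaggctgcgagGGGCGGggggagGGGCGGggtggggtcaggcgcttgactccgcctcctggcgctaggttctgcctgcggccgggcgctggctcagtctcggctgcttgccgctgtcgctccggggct
Sema6b (GRCr8 chr9:1047743-1047992, minus strand): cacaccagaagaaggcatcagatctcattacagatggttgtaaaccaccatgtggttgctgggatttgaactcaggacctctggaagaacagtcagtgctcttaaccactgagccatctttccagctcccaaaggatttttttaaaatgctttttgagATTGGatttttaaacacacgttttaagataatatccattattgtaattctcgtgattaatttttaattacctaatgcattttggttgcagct

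Of the 6 stretches, those of Plxna2, Sema6d, Sema4c and Sema7a held GC boxes, and those of Nrp1 and Sema6b a CCAAT box. RefSeq stretches were matched for 18 of the 23 members. A GC box was found in 9 of these 18 (50%), against 30.5% of all 33469 stretches of that length. The 9 included 2 members that fell (Plxna2, Sema6d) and 3 that rose (Sema4a, Sema4c, Sema7a). A CCAAT box was found in 5 of 18 (27.8%), against 34% of all stretches, and an E-box in that of Sema3e alone among the 18, against 5.59%. The TATA box, AP-1 and cyclic AMP letters were found in 0 of the 18 windows, against 12.9%, 4.05% and 1.59% of all. The median GC content was 59.2% for the 18 member stretches, against 51.2% for all stretches. It was 64% for the 4 matched members that fell, 57% for the 10 that did not pass and 56.6% for the 4 that rose. Those that fell and rose had ranges of 52.8% to 70.4% and 37.2% to 67.6% that overlapped. The set of all stretches was not limited to the genes measured here, so it is an unlike background for the members. A letter match describes the window only, and the gene start used in these cultures may lie elsewhere.

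Camptothecin was followed by lower mRNA of the neuropilins Nrp1 and Nrp2, and by changes in both directions among the ligands. The call of Nrp2, unlike that of Nrp1, was lost with any 1 array left out. Of the 23 members 5 fell (21.7%), where 9.35% of all 14506 genes fell, and 5 rose (21.7%), where 11.3% of all genes rose. The falls were Nrp1, Plxna2, Sema6d, Sema3a and Nrp2, and the rises were Sema4c, Sema7a, Sema6b, Sema3f and Sema4a. The median log2 change of the members, 0.07, was near that of all genes, 0.06. The arrays of both treatments did not overlap for 19 of 23 members (82.6%), against 42.6% of all genes. In these bulk cultures fewer cells of a type and less RNA per cell cannot be told apart. The count of rises was 3 without camptothecin replicate 2, without DMSO replicate 2 or without DMSO replicate 3, and 2 when arrays were centred on ribosomal protein genes, a setting under which 10 members fell.

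**Figure D1:**
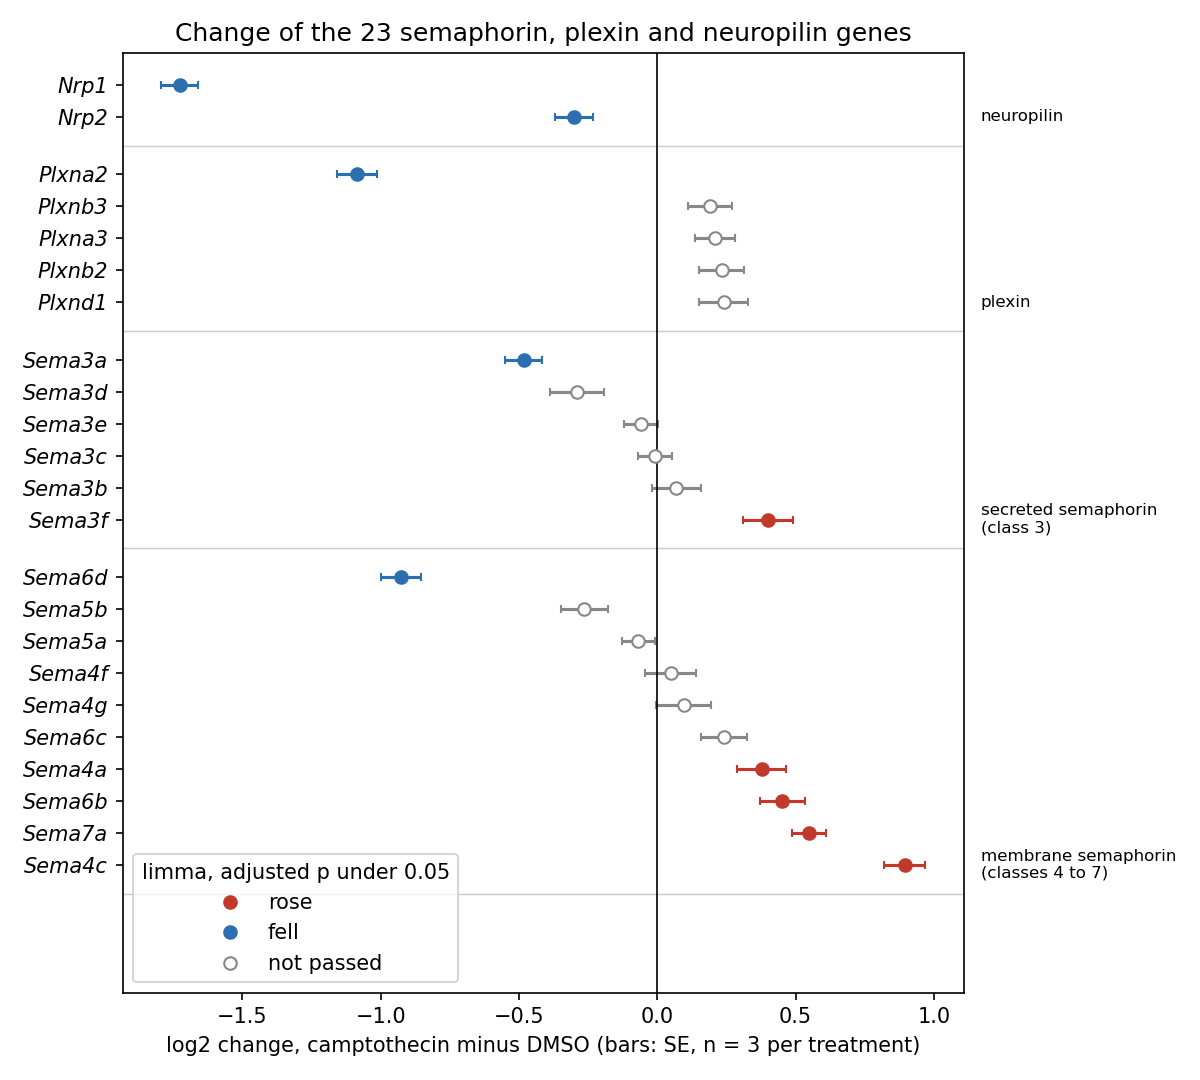
Log2 change (camptothecin minus DMSO) of the 23 members, grouped by role, with bars for limma's SE (n = 3 per treatment). Filled points passed the test (red rose, blue fell), open points did not. Both neuropilins lie below 0, and the 3 highest points (Sema4c, Sema7a and Sema6b) are membrane semaphorins.

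Nrp1, the neuropilin that binds Sema3a, was the member with the largest change. Its values were 7.41, 7.51 and 7.46 in camptothecin cultures, against 9.24, 9.20 and 9.13 in DMSO cultures. All camptothecin arrays lay below all DMSO arrays, with a gap of 1.62 between the nearest. It fell 3.31-fold (log2 change -1.73, SE 0.07, limma adjusted p = 1.9e-05, n = 3 per treatment), the 12th lowest change of 14506 genes. Nrp2, the neuropilin that binds Sema3f, had values of 7.50, 7.53 and 7.50 in camptothecin cultures, against 7.78, 7.90 and 7.75 in DMSO cultures. Its arrays did not overlap either, with a gap of 0.22. Nrp2 fell 1.23-fold (-0.30, SE 0.07, limma adjusted p = 0.0267), and this call was lost with any 1 of the 6 arrays left out (limma adjusted p from 0.0526 to 0.0943). With replicate number as a block the Nrp2 call was lost too (limma adjusted p = 0.0683). The 95% interval of the log2 change was -1.89 to -1.57 for Nrp1 and -0.47 to -0.14 for Nrp2, and the difference between them was not tested.

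Among the plexins, the signalling subunits, Plxna2 fell and the other 4 did not pass the test. Plxna2, a receptor for class 3 semaphorins with neuropilins and for class 6 semaphorins directly, had values of 9.57, 9.38 and 9.44 in camptothecin cultures, against 10.59, 10.54 and 10.52 in DMSO cultures. The groups were separated by 0.96 on the log2 scale. It fell 2.12-fold (-1.09, SE 0.07, limma adjusted p = 0.0002). Its close relative Plxna3, which pairs with neuropilins as well, had values of 7.74, 7.88 and 7.69 in camptothecin cultures, against 7.59, 7.54 and 7.55 in DMSO cultures. Plxna3 was higher on each camptothecin array, but the change of 0.21 (SE 0.07, 95% interval 0.04 to 0.38) did not pass (limma adjusted p = 0.0972). Plxnb2, a receptor for class 4 semaphorins, gave 8.23, 8.39 and 8.27 in camptothecin cultures, against 8.09, 8.15 and 7.96 in DMSO cultures. Its log2 change was 0.23 (limma adjusted p = 0.0964). The corresponding change was 0.24 for Plxnd1, the receptor that Sema3e binds without a neuropilin (limma adjusted p = 0.113), and 0.19 for Plxnb3 (limma adjusted p = 0.157). Both were dim, with means of 5.96 for Plxnd1 and 5.05 for Plxnb3 in camptothecin cultures, against 5.72 and 4.86 in DMSO cultures. The 4 plexins that did not pass had no overlap between treatments, and when arrays were centred on ribosomal protein genes their changes lay between -0.07 and -0.01.

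**Figure D2:**
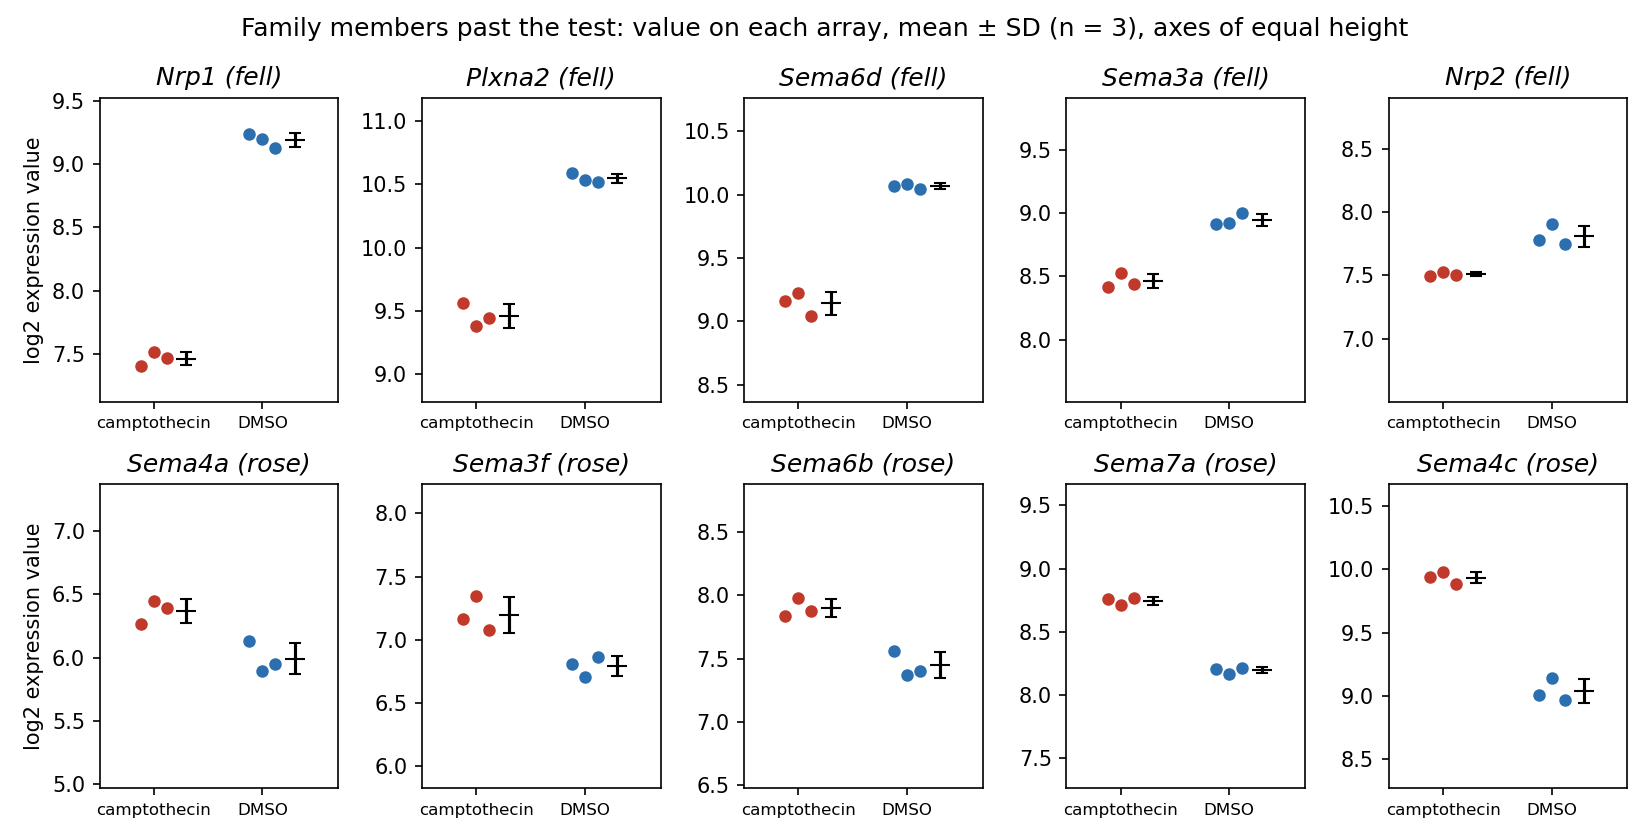
Log2 expression value on each array for the 10 members past the test, camptothecin (red) left and DMSO (blue) right, with mean ± SD (n = 3) beside the points and y axes of equal height. The gap between treatments is 1.62 for Nrp1 and 0.14 for Sema4a.

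Of the 6 secreted class 3 semaphorins, Sema3a fell, Sema3f rose and 4 did not pass. Sema3a, the repellent ligand of Nrp1, had values of 8.42, 8.53 and 8.44 in camptothecin cultures, against 8.92, 8.92 and 9.00 in DMSO cultures. Every camptothecin value was at least 0.39 below the lowest DMSO value. It fell 1.40-fold (-0.48, SE 0.07, limma adjusted p = 0.00424). Sema3f, the repellent ligand of Nrp2, had values of 7.16, 7.35 and 7.08 in camptothecin cultures, against 6.81, 6.71 and 6.87 in DMSO cultures. The lowest camptothecin array exceeded the highest DMSO array by 0.21. Sema3f rose 1.32-fold (0.40, SE 0.09, limma adjusted p = 0.0258), and the call was lost in 5 of the 6 fits with 1 array left out, all but that without camptothecin replicate 3 (limma adjusted p from 0.0353 to 0.0911), and also when arrays were centred on ribosomal protein genes. With replicate number as a block the call was lost too (limma adjusted p = 0.072). So within each of these ligand and receptor pairs, Sema3a and Nrp1 both fell, while Sema3f rose and Nrp2 fell. The calls of Sema3f and of Nrp2 were each lost in 7 of 15 alternative fits, and those of Sema3a and Nrp1 in 0.

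The other class 3 members did not pass the test. Sema3d was dim at 5.27, 5.18 and 5.09 in camptothecin cultures, against 5.66, 5.38 and 5.38 in DMSO cultures, and its change of -0.29 (SE 0.10) did not pass (limma adjusted p = 0.0878). Sema3c, a ligand of both neuropilins, averaged 8.86 ± 0.0049 in camptothecin cultures and 8.86 ± 0.029 in DMSO cultures (SD, n = 3 each). Its 95% interval of -0.15 to 0.13 leaves room for a change of either sign, and the arrays overlapped. The changes of Sema3e, the ligand of Plxnd1, and of the dim Sema3b were -0.06 (interval -0.21 to 0.09) and 0.07 (interval -0.14 to 0.28). On chromosome 4 of GRCr8, Sema3a and Sema3d are neighbours with 0 protein-coding genes between them, and 12 lie between Sema3e and Sema3a. On chromosome 8, 3 protein-coding genes lie between Sema3b and Sema3f.

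Among the 10 membrane semaphorins, 4 rose, 1 fell and 5 did not pass. Sema4c, a class 4 ligand of Plxnb2, had values of 9.94, 9.98 and 9.89 in camptothecin cultures, against 9.01, 9.15 and 8.97 in DMSO cultures. The treatments were 0.74 apart at their nearest arrays. It rose 1.86-fold (0.90, SE 0.07, limma adjusted p = 0.000448), the 63rd highest change of 14506 genes. A second, weaker transcript cluster of Sema4c, with a mean of 6.63 over the arrays, rose as well, by 0.63 (SE 0.10, limma adjusted p = 0.00758). Sema7a, a lipid-anchored semaphorin that binds integrins and Plxnc1, had values of 8.76, 8.71 and 8.77 in camptothecin cultures, against 8.21, 8.17 and 8.21 in DMSO cultures. These were among the tightest groups of the family, with an SD of 0.03 in each. Sema7a rose 1.46-fold (0.55, SE 0.06, limma adjusted p = 0.00167).

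The class 6 semaphorins, transmembrane ligands of the A-type plexins, moved in both directions. Sema6d had values of 9.16, 9.22 and 9.04 in camptothecin cultures, against 10.07, 10.09 and 10.04 in DMSO cultures. All camptothecin values lay at least 0.82 below all DMSO values. It fell 1.90-fold (-0.93, SE 0.07, limma adjusted p = 0.000357). Sema6b had values of 7.84, 7.98 and 7.88 in camptothecin cultures, against 7.56, 7.37 and 7.40 in DMSO cultures, with no overlap. It rose 1.37-fold (0.45, SE 0.08, limma adjusted p = 0.0105), a call lost when arrays were centred on ribosomal protein genes (0.20, limma adjusted p = 0.0816). Sema6c was higher on each camptothecin array, at 6.25, 6.50 and 6.34, against 6.16, 6.06 and 6.15 in DMSO cultures, but its change of 0.24 did not pass (limma adjusted p = 0.093).

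Sema4a, a class 4 semaphorin known from immune cells and retina, had values of 6.27, 6.45 and 6.39 in camptothecin cultures, against 6.13, 5.89 and 5.95 in DMSO cultures. The nearest arrays of the treatments were 0.14 apart, and its mean over all arrays, 6.18, was dim. It rose 1.30-fold (0.38, SE 0.09, limma adjusted p = 0.0292), and 4 of the 6 fits with 1 array left out lost the call, those without camptothecin replicate 2 or 3 or DMSO replicate 2 or 3 (limma adjusted p from 0.0333 to 0.0998). The call was also lost with either centring of the arrays and with replicate number as a block (limma adjusted p = 0.0813 with the block). The class 4 members Sema4f and Sema4g gave 0.05 (interval -0.17 to 0.27) and 0.10 (interval -0.14 to 0.33), with overlapping arrays. Of the class 5 semaphorins, which carry thrombospondin repeats, Sema5b had values of 6.31, 6.25 and 6.13 in camptothecin cultures, against 6.47, 6.41 and 6.61 in DMSO cultures. Each camptothecin array was lower, but the change of -0.26 (SE 0.08) did not pass (limma adjusted p = 0.0737). It passed in 6 of the 15 alternative fits. Sema5a differed by -0.07 (interval -0.21 to 0.08).

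The members that fell and those that rose differed in annotated genomic span, which the choice of members did not use. The 10 members spanning 100 kb or more on GRCr8 all had a log2 change below 0 in the values as deposited, and the 13 shorter ones, of 10.5 to 40.3 kb, all had one above 0. Among all genes, 69.9% of the 1631 of 100 kb or more lay below 0, and 66.6% of the 12843 shorter ones above it. Of the long members 5 fell (50%) and 0 rose, where 34.8% of all long genes fell. Of the short members 5 rose (38.5%) and 0 fell, where 12.5% of all short genes rose. The range of 10 to 30 kb held 12 of the short members, and 15.1% of all genes in it rose, with a median change of 0.11. The median change was -0.30 for the long members, against -0.14 for all long genes, and 0.24 for the short members, against 0.08 for all short genes. The count of short members above 0 was 12 with arrays centred on their median, 12 with another quantile normalization, 12 without camptothecin replicate 2 and 5 when centred on ribosomal protein genes, which shifts the median of all genes by -0.26. The count of long members below 0 was 9 with another quantile normalization, 9 without DMSO replicate 2, and 10 in the other fits that held all 10.

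Span did not order the long members among themselves. Nrp1, with a span of 155 kb, had the 8th lowest change of the 1631 long genes and Plxna2, at 205 kb, the 84th. Sema3c and Sema5a, at 164 kb and 431 kb, ranked 1118th and 954th. Nrp2, whose change was -0.30, spanned 115 kb and ranked 574th. Sema6d, at 593 kb, and Sema3a, at 470 kb, were the longest members. No member spanned between 40.3 and 115 kb, so a correlation over all members carries the split into long and short ones. Across the 23 members, which share the same arrays, Spearman's rho of span and change was -0.74, and across all genes it was -0.31. These are descriptions across genes, which are not independent replicates.

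**Figure D3:**
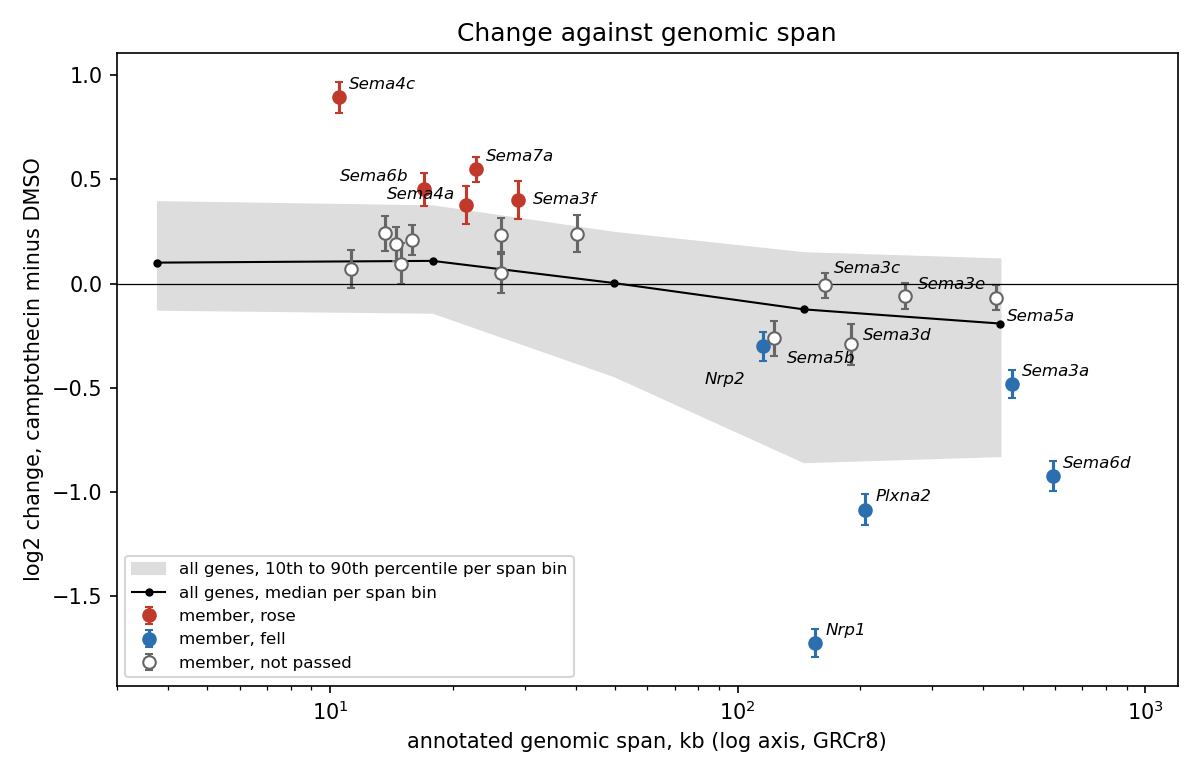
Log2 change (camptothecin minus DMSO) with SE against annotated genomic span in kb (log axis) for the 23 members, over the median and the 10th to 90th percentile of all genes in 5 span bins, drawn at each bin's median span. As deposited, the 10 long members lie below 0, and Nrp1, Plxna2 and Sema6d lie below the 10th percentile of their own bins.

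Genes that work with these ligands and receptors were called at shares near those of all genes. Of 54 measured signalling partners 7 fell (13%), where 9.35% of all genes fell, and 8 rose (14.8%), where 11.3% of all genes rose. Their median log2 change was 0.09, against 0.06 for all genes. Among the 18 co-receptors and other ligands, 3 rose and 2 fell. Met, a receptor kinase that associates with B-type plexins, had values of 6.49, 6.69 and 6.48 in camptothecin cultures, against 7.38, 7.47 and 7.38 in DMSO cultures. It fell without overlap, by 0.86 on the log2 scale (SE 0.08, limma adjusted p = 0.00083). Vegfc, a growth factor that also binds Nrp2, fell 1.73-fold (-0.79, SE 0.13, limma adjusted p = 0.00747), with 5.85, 5.89 and 6.27 in camptothecin cultures, against 6.66, 6.88 and 6.84 in DMSO cultures. The rises were small: Vegfa, a growth factor that binds Nrp1, by 0.34, and the adhesion molecules L1cam and Nrcam, co-receptors in neuropilin complexes, by 0.28 each. L1cam and Vegfa each lost the call in 5 of the 6 fits with 1 array left out, and Nrcam in all 6.

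Of the 36 cytoplasmic partners, 5 rose and 5 fell. Rnd1, a GTPase that binds plexin cytoplasmic domains, had values of 7.61, 7.48 and 7.55 in camptothecin cultures, against 6.27, 6.42 and 6.59 in DMSO cultures. All camptothecin arrays were higher, and it rose 2.17-fold (1.12, SE 0.10, limma adjusted p = 0.00054). Tiam1, an activator of Rac, fell 1.85-fold (-0.88, SE 0.14), and Rock2, a kinase that acts on the actin cytoskeleton, fell 1.57-fold (-0.65, SE 0.08). The Ras-family GTPases Rras2 and Mras, of a group on which the plexin domain acts, changed by -0.59 (SE 0.06) and -0.42 (SE 0.09). Rras, of the same group, lay above 0 at 0.32 and did not pass (limma adjusted p = 0.0804). Cdk5, a kinase in the Sema3a response, rose by 0.44 (SE 0.11), and its activator Cdk5r1 by 0.36 (SE 0.08). Dpysl4, of the collapsin response mediator family, rose by 0.37 (SE 0.09). Among the partners chosen for naming, Tiam1, Met, Vegfc, Rock2, Rras2 and Rnd1 kept their calls in all 15 alternatives. With 1 array left out, Mras lost its call in 4 of the 6 fits, Cdk5 and Dpysl4 in 5, and Cdk5r1 in 3. Dpysl2, another collapsin response mediator, did not pass at 0.33 (limma adjusted p = 0.0621). Rac1, a GTPase downstream of plexins, gave 0.11 (limma adjusted p = 0.319). Of the 54 partners 19 spanned 100 kb or more, of which 4 fell (21.1%, where 34.8% of all genes of that span fell) and 1 rose. Of the 35 shorter partners 3 fell and 7 rose (20%, where 12.5% of all shorter genes rose). The count of partners that rose was 1 to 3 in each fit without camptothecin replicate 2 or 3 or without any 1 DMSO array, and 6 without camptothecin replicate 1. When arrays were centred on ribosomal protein genes, 1 partner rose and 21 fell, and when centred on their median 2 rose.

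**Figure D4:**
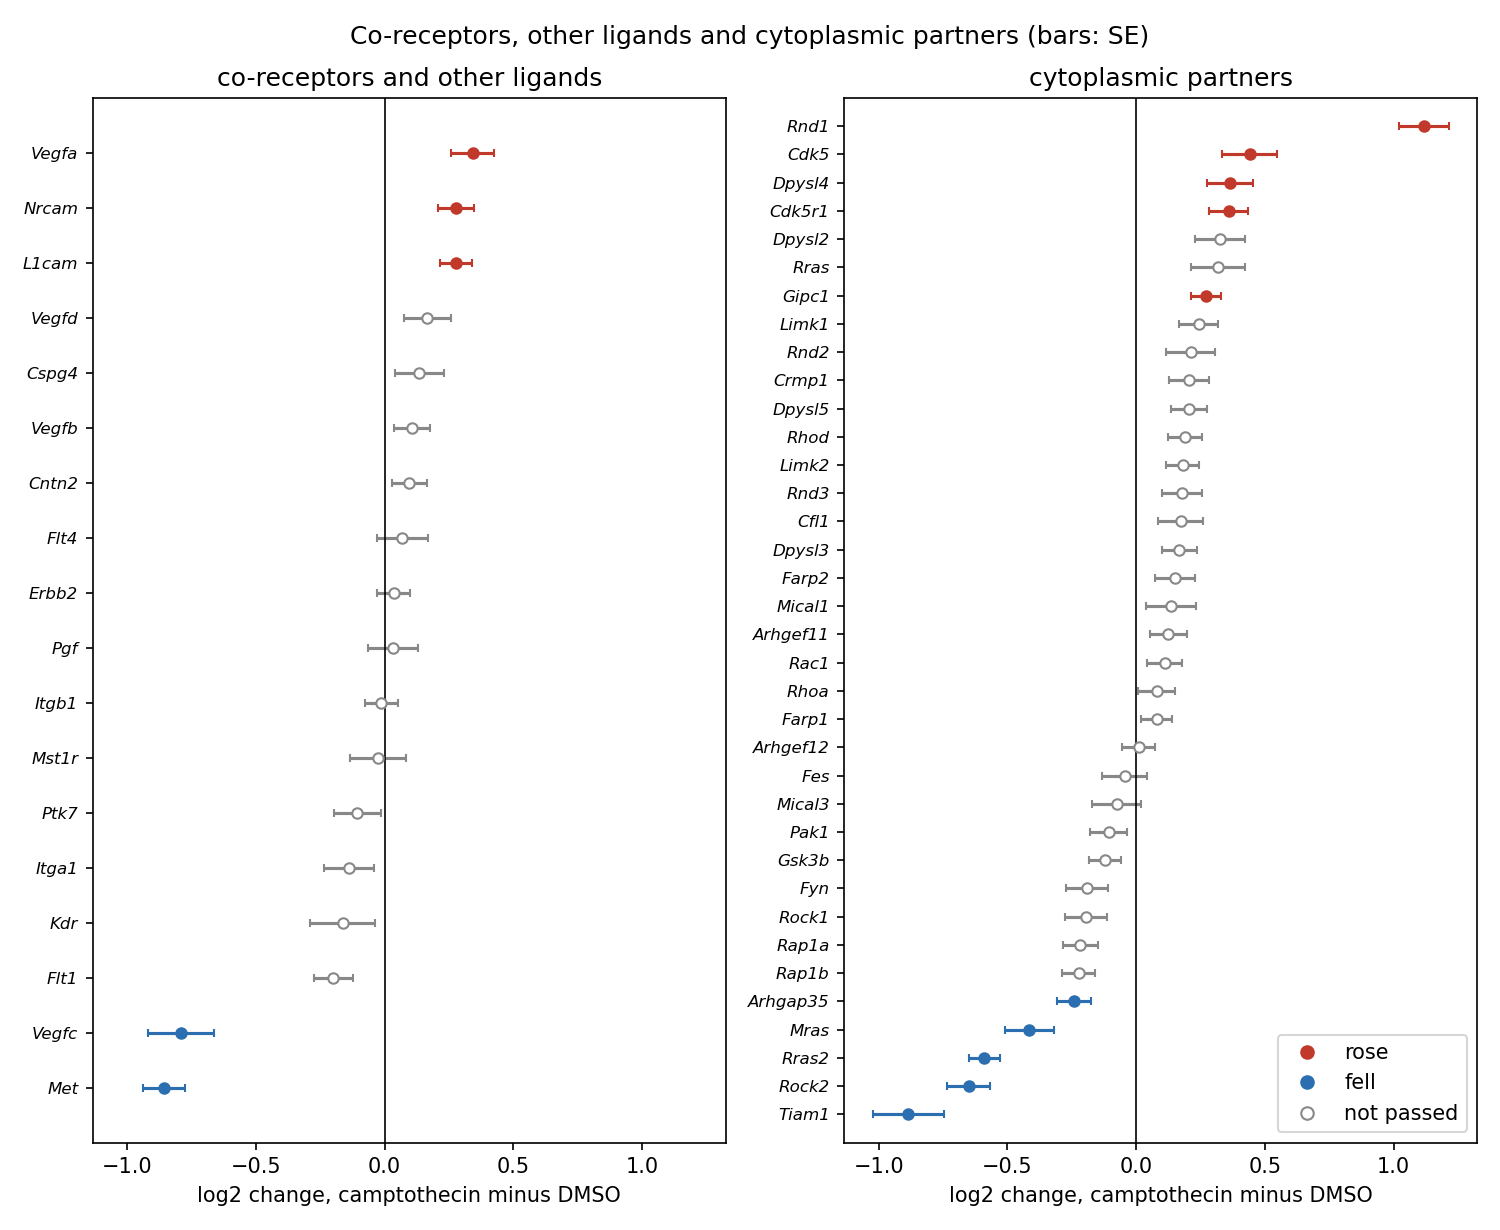
Log2 change (camptothecin minus DMSO, bars SE, n = 3 per treatment) of 18 co-receptors and other ligands (left) and 36 cytoplasmic partners (right). Red points rose, blue points fell and open points did not pass; Rnd1 has the highest change of the 54, at 1.12, and Tiam1 the lowest, at -0.88.

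Cell type markers are given beside the shares of all genes, of which 9.35% fell and 11.3% rose. Of the 9 measured interneuron and sensory neuron markers 5 fell and 0 rose, and their summed level (the sum of the unlogged values) was 3094 to 3264 in camptothecin cultures, against 4956 to 5296 in DMSO cultures. The brightest in DMSO cultures, Gad2, Slc17a6 and Slc6a5 (means of 10.65, 10.38 and 9.26), all fell, and they weigh most in that sum. The markers that fell were Gad1, Gad2, Slc6a5, Slc17a6 and Pax2. Their spans were 40.1 to 91.2 kb, and 16.2% of all genes of 30 to 100 kb fell. The others lay above 0 and did not pass: Slc32a1, Lhx5, Lhx1 and Pou4f1 gave 0.23, 0.26, 0.10 and 0.08. They spanned 4.47 to 8.44 kb. Of the 9 motor neuron markers 3 rose and 0 fell, and their median log2 change was 0.02. The 3 that rose were the intermediate filament genes Prph, Nefh and Nefm, while Isl1, Slc5a7, Slc18a3 and Ret gave -0.27, -0.34, -0.11 and -0.17 and did not pass. The 3 that rose spanned 4.18 to 9.99 kb, and 15.3% of all genes under 10 kb rose. The 6 motor neuron markers that did not pass spanned 2.86 to 42.2 kb. The summed level of all 9 was 2539 to 2836 in camptothecin cultures and 2183 to 2224 in DMSO cultures. Without Nefm the sums overlapped, at 664 to 728 in camptothecin cultures and 680 to 693 in DMSO cultures. In the other lists the calls were few, with 1 of 8 progenitor and astroglial markers, 1 of 2 oligodendrocyte and Schwann cell markers and 1 of 7 fibroblast markers lower. Of the endothelial, blood and microglial markers 1 of 8 rose, and of the 6 muscle markers 1 rose and 1 fell. The part of the marker changes in the changes of Nrp1, Plxna2 and the other members was not tested. The part of span in the marker changes was not tested either.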

How the data were processed

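The deposited table holds log2 expression values of 29214 transcript clusters on 6 arrays, 3 per treatment, made with RMA and oligo per the submitters' processing notes. No version, probe annotation or build is given in these sources. Of the clusters 15310 carried 1 gene symbol in the platform annotation, 323 carried several, 13581 carried none, and only the first kind was named. The values were tested as deposited with limma 3.58.1 in R 4.3.3 (lmFit and eBayes, camptothecin minus DMSO, two-sided, Benjamini-Hochberg adjustment over all clusters, threshold 0.05), after a check on simulated data. The labels give no batch. Intervals are 95% intervals from that fit.

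Spans, gene order and promoter stretches come from RefSeq on GRCr8, and span was available for 14474 of 14506 genes. The members, the lists of partners and markers and the tests were chosen with earlier results of these data known. All members are described, with array values for those past the threshold. Up to 10 partners past the threshold with the largest change were to be named. L1cam, Nrcam and Vegfa were chosen after their values were seen, as were Rras, Dpysl2 and Rac1, which did not pass. Partners not measured by a cluster with 1 symbol were left out. Alternatives were another quantile normalization, 2 centrings, a filter on dim clusters, the replicate block, trended and robust eBayes, array weights, each array left out, 1-symbol clusters only, the mean over a gene's clusters and a threshold of 0.01.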

Additional observations from a re-analysis of the deposited data

How the results depend on the processing

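Nrp1, Plxna2, Sema6d, Sema3a, Sema4c and Sema7a kept direction and call in all 15 alternative fits, so 6 of the 10 called members did. The number of arrays limits every call, and 7 members were dim. When arrays were centred on ribosomal protein genes 2 members rose and 10 fell, and 1 partner rose and 21 fell. With arrays centred on their median 2 partners rose. Without dim clusters, where fewer clusters are tested, 14 partners rose, and with trended and robust eBayes 13 did. At a threshold of 0.01, 2 members and 1 partner rose. With 1 array left out 3 to 4 members rose and 4 fell, and 1 to 6 partners rose and 5 to 6 fell. Each centring moves the log2 change of every gene by the same amount, -0.26 with ribosomal protein genes and -0.07 with array medians. What lay behind the other shifts, the smaller number of arrays included, was not tested.

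Of the 13 members that did not pass, 9 changed sign in some fit, and 7 passed in some fit. Ribosomal centring moves every change by the same -0.26, so a change between 0 and that size turns negative. With it the changes were -0.0462 for Plxna3, -0.0225 for Plxnb2, -0.0655 for Plxnb3 and -0.0149 for Plxnd1. They were -0.19 for Sema3b, -0.21 for Sema4f, -0.16 for Sema4g and -0.0144 for Sema6c. Sema3c was 0.0065 with another quantile normalization and -0.0249 to 0.000865 with 1 array left out, above 0 without DMSO replicate 2. Sema4f was -0.0174 with that normalization, -0.0176 with median centring, and -0.0038 to 0.126 with 1 array left out, below 0 without camptothecin replicate 2.

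Same-numbered arrays of both treatments did not deviate together (r of -0.0844, 0.0222 and 0.0845), so the replicate numbers are not taken as pairs. With the replicate block 3 members rose and 4 fell, and 2 partners rose and 6 fell. The member calls lost with the block were those of Nrp2, Sema3f and Sema4a.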
